A study of Mus musculus with 19 samples.

Results

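Among the 51912 genes counted in each library, 8 genes of the cell death machinery were examined: *Apaf1*, *Casp9*, *Casp2*, *Casp8*, *Xiap*, *Fas*, *Tnfrsf10b* and *Eda2r*. They were chosen by name as caspases, apoptosome components and receptors of the TNF receptor family, with the caspase inhibitor *Xiap*. The libraries were made from E13.5 mouse cortex, 1 library per embryo, with 7 ctrl, 5 cKO-E and 7 dKO-E embryos. In cKO-E, *Ino80*, the ATPase of a nucleosome remodeler, was deleted with *Emx1*-Cre (*Emx1* Cre/+; *Ino80* fl/fl). In dKO-E, *Trp53*, which encodes p53, was deleted together with it (*Trp53* fl/fl on the cKO-E genotype). The mice were of mixed C57BL/6 and 129 background, and the exact genotype of the ctrl embryos is not given in the sources used here. *Emx1*-Cre recombines in cortical progenitors and their descendants, so microglia, vessels and immigrating interneurons in the same tissue kept both genes. The design asks whether these genes differed between cKO-E and ctrl, between dKO-E and ctrl, and between the mutants.

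Apoptosis can be started from inside or outside the cell. In the intrinsic pathway, cytochrome c released from mitochondria binds APAF1, and the assembled apoptosome activates caspase-9, which in turn cleaves further caspases. In the extrinsic pathway, ligands of the TNF family engage death receptors such as FAS and TNFRSF10B (DR5), which activate caspase-8. Caspase-2 is activated on the PIDDosome, a complex with PIDD1 and the adaptor CRADD, and XIAP binds and inhibits caspases. p53 is known to activate transcription of *Apaf1*, *Fas*, *Tnfrsf10b*, *Eda2r* and *Pidd1*.

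The bases just before the annotated start of 3 members are shown because these genes had the largest increase (*Eda2r*), a small increase (*Apaf1*) and a decrease (*Casp2*) in the comparisons below. Each line holds the 250 bases upstream of the start on the gene's own strand, from RefSeq on GRCm38. Capitals mark GGGCGG and TATAAA on either strand.
Apaf1 (chr10:91082744-91082993, minus strand): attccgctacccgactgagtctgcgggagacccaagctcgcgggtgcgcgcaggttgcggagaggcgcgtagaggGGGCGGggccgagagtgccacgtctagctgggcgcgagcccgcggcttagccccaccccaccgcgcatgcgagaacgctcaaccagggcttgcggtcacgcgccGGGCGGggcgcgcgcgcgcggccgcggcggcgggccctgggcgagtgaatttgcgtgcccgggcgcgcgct
Casp2 (chr6:42264735-42264984, plus strand): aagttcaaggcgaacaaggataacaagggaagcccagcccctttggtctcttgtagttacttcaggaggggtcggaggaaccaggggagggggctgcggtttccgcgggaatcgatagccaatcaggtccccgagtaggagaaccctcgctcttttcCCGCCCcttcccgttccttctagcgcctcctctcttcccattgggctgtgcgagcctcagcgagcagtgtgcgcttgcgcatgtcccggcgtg
Eda2r (chrX:97377210-97377459, minus strand): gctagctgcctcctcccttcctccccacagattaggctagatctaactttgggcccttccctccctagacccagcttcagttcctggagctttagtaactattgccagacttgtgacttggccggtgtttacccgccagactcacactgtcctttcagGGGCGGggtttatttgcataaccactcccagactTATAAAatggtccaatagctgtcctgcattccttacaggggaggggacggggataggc
Windows of 300 bases, which add 50 bases after the start, were available for 7 of the 8 members, with 3 starts for *Xiap*. GC content was 74.7% for *Apaf1*, 63.7% for *Casp2* and 50.3% for *Eda2r*, and the median over all 32851 promoters was 52.7%. The *Apaf1* window held 3 matches to GGGCGG, the *Casp2* window held 2 and the *Eda2r* window held 1, and 35.7% of all promoters held at least 1. TATAAA on either strand occurred in 13.6% of promoters, among them 1 start of *Xiap* and that of *Eda2r*, where its first base lay 58 bases before the start. The p53 half-site was found in 8.36% of promoters and in 0 of the members' windows, which says only that those letters are not in these windows.

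Expression differed widely between members. Values per gene are CPM, read counts scaled to a common library size with a correction for composition, and genes are compared with each other only per kb of annotated exon. In ctrl, *Xiap* was at 16.0 ± 0.541 CPM per kb (SD, n = 7), *Casp2* at 10.02 ± 1.38, *Apaf1* at 6.85 ± 0.596, *Casp9* at 2.63 ± 0.526, *Casp8* at 1.75 ± 0.397, *Tnfrsf10b* at 0.350 ± 0.0580 and *Eda2r* at 0.332 ± 0.123. *Fas* had a count of 0 in all 7 ctrl libraries. In this order, *Casp9* overlapped *Casp8* across embryos and *Tnfrsf10b* overlapped *Eda2r*, whereas the other neighbors did not overlap. In cKO-E, *Eda2r* stood at 4.49 ± 0.999 CPM per kb (SD, n = 5), above *Casp8* at 1.74 ± 0.383 and beside *Casp9* at 2.81 ± 0.403, whose range (2.39 to 3.32) overlapped that of *Eda2r* (2.95 to 5.54). In dKO-E, *Eda2r* was again near the bottom, at 0.0641 ± 0.0518 CPM per kb (SD, n = 7).

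The total on genes ran from 820915 to 8095810 counts per library (median 2952788), and 3 counts, taken as the floor, corresponded to between 0.370 and 3.73 CPM. Replicate libraries differed by more than counting error in every pair, so none was a duplicate. The ctrl embryos were 4 females and 3 males from 4 litters, the cKO-E embryos 4 females and 1 male from 5 litters, and the dKO-E embryos 2 females and 5 males from 2 litters. *Xiap* and *Eda2r* lie on the X chromosome. Gene-level *Ino80* was at 122 ± 8.73 CPM (SD, n = 7) in ctrl, 167 ± 14.8 (n = 5) in cKO-E and 187 ± 13.8 (n = 7) in dKO-E, and *Trp53* at 43.9 ± 5.21, 39.5 ± 4.68 and 34.8 ± 4.96. Sums over a whole gene do not show the loss of single exons, so these levels do not check the deletions. All 6 markers of the cortical excitatory lineage had counts in every group, and their summed level overlapped between the groups (831 to 1021 CPM in ctrl, 737 to 899 in cKO-E and 697 to 923 in dKO-E), though 3 of the 6 were lower in cKO-E than in ctrl at a false discovery rate of 0.05.

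**Figure D1:**
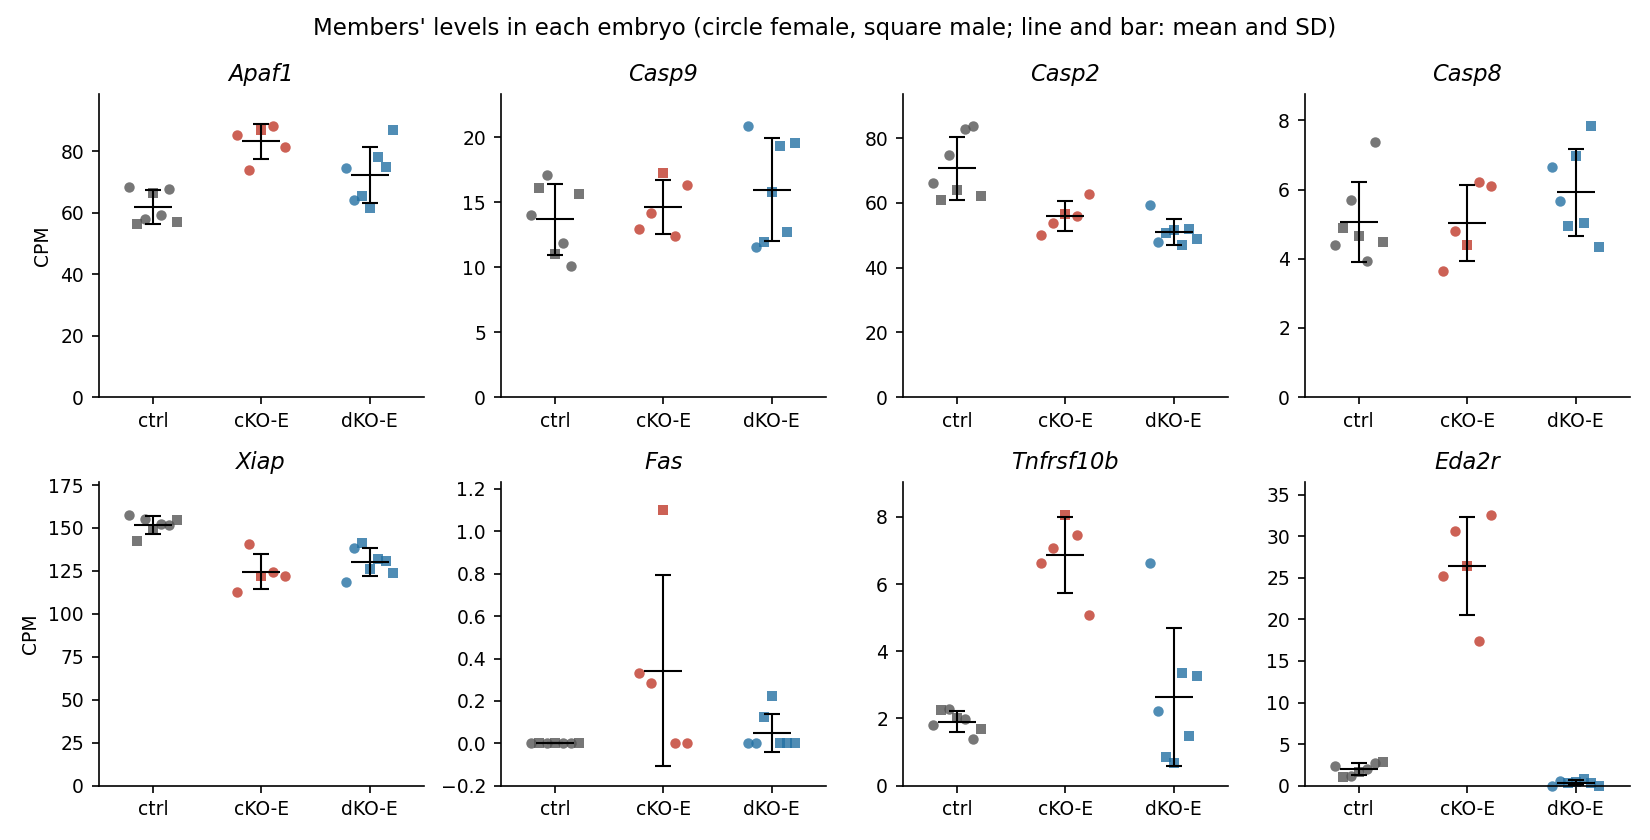
CPM of the 8 members in each embryo (y axes, linear, with a scale of their own in each panel) by genotype (x axes), with circles for females, squares for males, and the mean and SD in black. The 5 cKO-E embryos lie above every other embryo for *Eda2r* and above every ctrl embryo for *Apaf1* and *Tnfrsf10b*, and both mutants lie below every ctrl embryo for *Xiap*.

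Compared with ctrl, 3 members rose in cKO-E, the receptor genes *Eda2r* and *Tnfrsf10b* and the apoptosome scaffold *Apaf1*. At the threshold used against ctrl, a false discovery rate of 0.001, 7 of the 8 members could be tested among 11660 genes, and 3 were higher and 0 lower. *Eda2r* and *Tnfrsf10b*, at 3 to 9 and 3 to 11 counts in ctrl, passed the filter on counts through cKO-E. They could thus hardly have been called lower. Over all genes tested, 1.06% were higher and 2.32% lower at this threshold. At a false discovery rate of 0.05, 3 members were higher and 2 lower, where 7.31% and 9.88% of all genes were. The lower members were *Casp2* and *Xiap*, which were also the 2 with a negative change at an unadjusted p of 0.05. At 0.001, edgeR's likelihood-ratio test called 1 member lower (*Xiap*) and DESeq2 called 0. *Casp8* and *Casp9*, the initiator caspases of the extrinsic and the apoptosome pathway, passed neither threshold.

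*Eda2r* encodes a receptor of the TNF receptor family that binds the A2 form of ectodysplasin. The gene (ENSMUSG00000034457.10) spans 97333840 to 97377216 on the minus strand of the X chromosome. In ctrl it ranged from 1.02 to 2.80 CPM with a median of 1.97, which came from 3 to 9 counts per library. The 5 cKO-E embryos were at 25.2, 30.6, 26.4, 17.4 and 32.6 CPM, from 14 to 108 counts. Every cKO-E embryo was thus several times above the highest ctrl embryo. The log2 fold change was 3.89 (SE 0.22, edgeR quasi-likelihood adjusted p = 7.94e-09), a 14.9-fold difference. Summed over embryos, 366 counts in cKO-E against 37 in ctrl gave a ratio of 15.8, with a 95% exact interval of 11.2 to 22.8 that covers counting error alone. The difference was present within labelled batch 1 (log2 fold change 4.14), within batch 2 (3.40) and among females alone (3.77).

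*Tnfrsf10b*, the mouse counterpart of the TRAIL receptor DR5, spans 69767472 to 69784411 on the plus strand of chromosome 14 (ENSMUSG00000022074.5). It ranged from 1.38 to 2.28 CPM in ctrl, with a median of 1.97, and only 3 to 11 counts lay behind each value. In cKO-E it was at 6.64, 7.08, 8.07, 7.45 and 5.10 CPM, from 6 to 25 counts. No cKO-E embryo overlapped ctrl. The log2 fold change came to 1.77 (SE 0.22, edgeR quasi-likelihood adjusted p = 2.98e-05), which corresponds to a 3.41-fold difference. It was 1.76 within batch 1 and 1.74 among females alone, where the adjusted p was 0.00236 and missed the threshold. In batch 2 the gene had too few counts to be tested, with 3 ctrl embryos at 1.38 to 1.97 CPM and 2 cKO-E embryos at 5.10 and 7.45.

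*Apaf1* encodes the scaffold of the apoptosome and spans 90989311 to 91082770 on the minus strand of chromosome 10 (ENSMUSG00000019979.12). In ctrl it ranged from 56.4 to 68.5 CPM with a median of 59.2. In cKO-E it was at 85.3, 73.9, 87.0, 88.2 and 81.5 CPM. The groups did not overlap, and in 3.21% of all genes every cKO-E embryo was above ctrl. Its increase was small beside those of the receptors, a log2 fold change of 0.41 (SE 0.07, edgeR quasi-likelihood adjusted p = 0.000963) or 1.33-fold. This adjusted p lies just inside the threshold, and leaving out any 1 of 11 of the 12 embryos moved it outside, to at most 0.00497, with log2 fold changes from 0.39 to 0.46. The only embryo that could be left out without losing the call was ctrl H. It was also outside the threshold with RLE factors (adjusted p = 0.00102), sex as a covariate (0.00154) and litter as a block (0.014), and within batch 1 (0.39, adjusted p = 0.0139) and batch 2 (0.44, adjusted p = 0.0733).

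*Xiap* and *Casp2* showed smaller differences in the opposite direction. *Xiap*, the X-linked inhibitor of caspases, ranged from 142 to 158 CPM in ctrl with a median of 153. It was at 113, 141, 122, 124 and 122 CPM in cKO-E. All cKO-E embryos lay below all ctrl embryos, as in 5.56% of all genes, though the margin between the closest embryos was narrow. On the log2 scale the change was -0.28 (SE 0.06, edgeR quasi-likelihood adjusted p = 0.0033). In batch 2 alone it was -0.31 and missed 0.05 (adjusted p = 0.0973). Among females alone it was -0.30, with ctrl females at 152 to 158 CPM and cKO-E females at 113 to 141. *Casp2*, an initiator caspase, ranged from 61.1 to 83.8 CPM in ctrl with a median of 66.2, and was at 50.1, 53.8, 56.5, 55.9 and 62.8 CPM in cKO-E. Of these, 4 of 5 embryos were below every ctrl embryo. The fitted log2 change was -0.33 (SE 0.09, edgeR quasi-likelihood adjusted p = 0.0241). It missed 0.05 with litter as a block (adjusted p = 0.063), with total counts as the scaling (0.0533) and in batch 2 alone (0.277). It also missed 0.05 without cKO-E embryo A (0.0692), B (0.0621) or C (0.0516).

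For *Casp9* and *Casp8*, the groups overlapped. The cKO-E mean of *Casp9* was 14.6 ± 2.09 CPM (SD, n = 5), against 13.7 ± 2.73 (SD, n = 7) in ctrl, with a log2 fold change of 0.09 (SE 0.15, edgeR quasi-likelihood adjusted p = 0.771). Its 3′ end overlaps *Cela2a* and *Ctrc* on the opposite strand. The strand setting of the counting is not given in the sources used here. It is thus uncertain whether reads in the overlap were counted, misassigned or set aside as ambiguous. *Casp8* was at 5.07 ± 1.15 CPM in ctrl and 5.04 ± 1.11 in cKO-E, with a log2 fold change of -0.06 (SE 0.22, edgeR quasi-likelihood adjusted p = 0.909) and only 5 to 24 counts per library in these groups. The SE for *Casp8* was thus larger than that for *Apaf1* in the same comparison, 0.07.

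*Fas* was close to absent from these libraries. The 7 ctrl libraries held 0 counts together, which allows a level of up to 0.145 CPM (3 counts over the group, counting error only). In cKO-E, embryos A, B and C held 1, 1 and 3 counts, and embryos D and E held 0. In dKO-E, 2 of 7 embryos held 1 count each. The difference between cKO-E and ctrl in mean CPM was 0.343 (two-sided exact permutation test, p = 0.0455, adjusted p = 0.134 over the 3 comparisons of this gene), and no fold change is given because each library was at or under 3 counts. Without cKO-E embryo C, which held 3 of the 5 counts, it was 0.154 (exact permutation p = 0.109), and in batch 2 both groups were at 0.

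**Figure D2:**
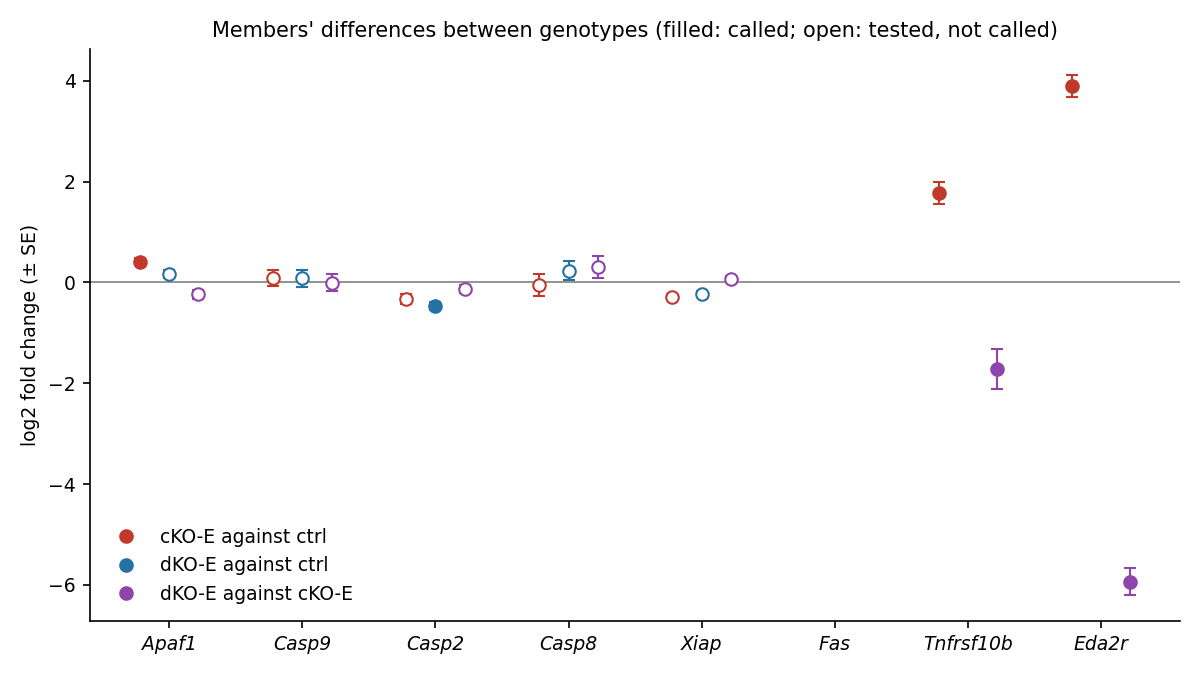
Log2 fold change (y axis, with the SE as bars) of each member tested in cKO-E against ctrl, dKO-E against ctrl and dKO-E against cKO-E, filled where called and open where tested without a call. *Eda2r* and *Tnfrsf10b* have the largest values, 3.89 and 1.77 in cKO-E against ctrl and -5.93 and -1.72 in dKO-E against cKO-E, and *Fas* was never tested.

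In dKO-E, *Eda2r*, *Tnfrsf10b* and *Fas* had too few counts to be tested against ctrl in the fit. The member called at the threshold was *Casp2*, which was lower. In this comparison, 5 members could be tested among 11381 genes, of which 0 were higher and 1 lower. The background was 0.246% of genes higher and 2.34% lower. No member was higher by edgeR's likelihood-ratio test or DESeq2 either, and 1 of 5 was higher at an unadjusted p of 0.05, *Apaf1* (log2 fold change 0.17, SE 0.08, adjusted p = 0.153). Its unadjusted edgeR quasi-likelihood p of 0.0431 was at rank 3207 among the 11381 genes tested. At a false discovery rate of 0.05, 0 members were higher and 2 lower (*Casp2* and *Xiap*), where 5.45% of genes were higher and 10% lower.

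*Casp2* (ENSMUSG00000029863.13, chromosome 6, 42264985 to 42282508, plus strand) ranged from 47.1 to 59.3 CPM in dKO-E with a median of 50.9. Every dKO-E embryo was below every ctrl embryo, as in 3.22% of genes, while 1.21% had every dKO-E embryo above. The log2 fold change was -0.46 (SE 0.08, edgeR quasi-likelihood adjusted p = 0.000825), a level 0.726 of that in ctrl. This call was close to the threshold and was lost without any 1 of 11 of the 14 embryos, at log2 fold changes from -0.50 to -0.41 over all 14. The exceptions were ctrl B, ctrl I and dKO-E A. Within litter, where only litter 1 held both groups, it was -0.30 (adjusted p = 0.189). It was -0.37 in batch 1 and -0.59 in batch 2. In ctrl, the 4 females were at 66.2 to 83.8 CPM and the 3 males at 61.1 to 64.0. In dKO-E, the 2 females were at 47.9 to 59.3 CPM and the 5 males at 47.1 to 51.9. With sex as a covariate, the log2 fold change was -0.41 (edgeR quasi-likelihood adjusted p = 0.00108), outside the threshold.

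*Xiap* (ENSMUSG00000025860.14, X chromosome, 42059679 to 42109656, plus strand) ranged from 119 to 141 CPM in dKO-E, with a median of 131. All 7 embryos were again below all 7 ctrl embryos, as in 3.22% of genes. Its log2 fold change was -0.22 (SE 0.05, edgeR quasi-likelihood adjusted p = 0.0062). The call at 0.05 was lost with litter as a block (-0.18, adjusted p = 0.269), with the title letter as a block (-0.22, adjusted p = 0.0886) and with total counts as the scaling (-0.13, adjusted p = 0.0871). It was also lost in batch 1 alone (-0.21, adjusted p = 0.0856), in batch 2 alone (-0.26, adjusted p = 0.205) and among females alone (-0.27, adjusted p = 0.205). *Apaf1* overlapped ctrl in dKO-E, from 61.5 to 87.0 CPM with a median of 74.5, and 4 of 7 embryos lay above every ctrl embryo. Its log2 fold change was 0.07 in batch 1 and 0.36 in batch 2, and with total counts it was 0.27 (adjusted p = 0.0284), which would pass 0.05. *Casp8* (log2 fold change 0.23, SE 0.18, adjusted p = 0.460) and *Casp9* (0.08, SE 0.16, adjusted p = 0.797) did not pass.

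*Eda2r* and *Tnfrsf10b* fell under the filter on counts in dKO-E against ctrl and were compared by exact permutation tests of the mean CPM, two-sided. *Eda2r* was lower than in ctrl, with dKO-E embryos A to G at 0, 0.608, 0.370, 0.450, 0.841, 0.373 and 0 CPM, from 0 to 3 counts. No dKO-E embryo reached the lowest ctrl embryo, at 1.02 CPM. The difference was -1.58 CPM (exact permutation p = 0.000583, the smallest that 3432 splits of 7 and 7 embryos can give). This test takes embryos as independent, whereas the dKO-E embryos came from 2 litters. In litter 1, the only one with both groups, ctrl embryos were at 2.34 and 1.02 CPM and dKO-E embryos at 0, 0.608 and 0.370. No other comparison of *Eda2r* was made this way, so this p was not adjusted further. In a fit without a filter, the log2 fold change was -2.10 (edgeR quasi-likelihood adjusted p = 0.0112). In 1 fit over all libraries it was -2.04 (adjusted p = 0.00119), and both missed 0.001. Summed over embryos, 37 counts in ctrl and 10 in dKO-E gave a ratio of 4.34 with a 95% exact interval of 2.12 to 9.80, for counting error alone. *Tnfrsf10b* did not separate the groups, with a mean of 2.65 ± 2.06 CPM (SD, n = 7) in dKO-E against 1.91 ± 0.316 in ctrl (exact permutation p = 0.438). dKO-E embryo A, a female, was at 6.64 CPM from 14 counts, within the range of cKO-E, whereas the other 6 ranged from 0.675 to 3.36. Without embryo A, the difference from ctrl went from 0.737 to 0.0716 CPM.

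The direct comparison of the mutants, which differ by *Trp53*, was made across litters, since no litter held both. Of 11746 genes tested, 7 were members, and at a false discovery rate of 0.05, 0 were higher and 2 lower in dKO-E, *Eda2r* and *Tnfrsf10b*. Both passed the filter on counts through cKO-E, so they could hardly have been called higher in dKO-E. Over all genes, 5.59% were higher and 9.42% lower. No member was higher at an unadjusted p of 0.05, by edgeR's likelihood-ratio test or by DESeq2.

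For *Eda2r*, the log2 fold change was -5.93 (SE 0.26, edgeR quasi-likelihood adjusted p = 1.56e-11), and all 7 dKO-E embryos were below all 5 cKO-E embryos, a separation seen for 4.66% of genes in this direction and 2.43% in the other. Because the dKO-E libraries held at most 3 counts, the size of the fitted change is uncertain. The ratio of the summed counts, 366 in cKO-E and 10 in dKO-E, was 68.5 with a 95% exact interval of 36.8 to 144, for counting error alone. For *Tnfrsf10b*, the log2 fold change was -1.72 (SE 0.39, edgeR quasi-likelihood adjusted p = 0.00536), with 6 of 7 dKO-E embryos below every cKO-E embryo and embryo A within their range. Without embryo A it was -2.16. Among females alone, where embryo A was 1 of 2, it was -0.74 (adjusted p = 0.355). The remaining members did not pass. *Apaf1* came closest (log2 fold change -0.23, SE 0.09, adjusted p = 0.0716), at -0.31 in batch 1 and -0.09 in batch 2, *Casp2* was at -0.13 (SE 0.08), and *Xiap*, lower than ctrl in both mutants at 0.05, was at 0.07 (SE 0.07, adjusted p = 0.575). Since both mutants were compared with the same ctrl embryos, their differences from ctrl are not independent.

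Cells that *Emx1*-Cre does not reach varied with genotype in the same tissue. Of 15 microglial markers, 14 had counts in ctrl, with *Trem2* at 0, and all 15 in cKO-E and in dKO-E. Their summed level was 7.79 to 19.0 CPM in ctrl, 39.9 to 57.2 in cKO-E and 10.1 to 14.8 in dKO-E, so that every cKO-E embryo was above every other embryo, as for *Eda2r*. Of the 3 microglial markers that could be tested in cKO-E against ctrl, 2 were higher at 0.001 and 3 at 0.05. Within cKO-E, embryo D, the library with the fewest counts of all (820915), had the highest microglial sum and the lowest *Eda2r*, from 14 counts. Within dKO-E, embryo A had a microglial sum of 12.8 CPM at a *Tnfrsf10b* level like that of cKO-E, also from 14 counts. Both are single embryos. Markers of the ganglionic eminence and interneurons summed to 7.82 to 65.3 CPM in ctrl, 47.9 to 94.3 in cKO-E and 21.3 to 51.7 in dKO-E, with *Nkx2-1* at 0 in cKO-E. Of the 3 that could be tested in cKO-E against ctrl, 1 was higher at a false discovery rate of 0.05 and 3 at an unadjusted p of 0.05 (median log2 fold change 0.87), and all 3 tested between the mutants were lower in dKO-E at 0.05 (median -0.89). Endothelial, mesenchymal and blood markers overlapped between all groups. The part of these cells in the members' differences was not tested. In bulk tissue, fewer cells of a type and less RNA per cell cannot be told apart.

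**Figure D3:**
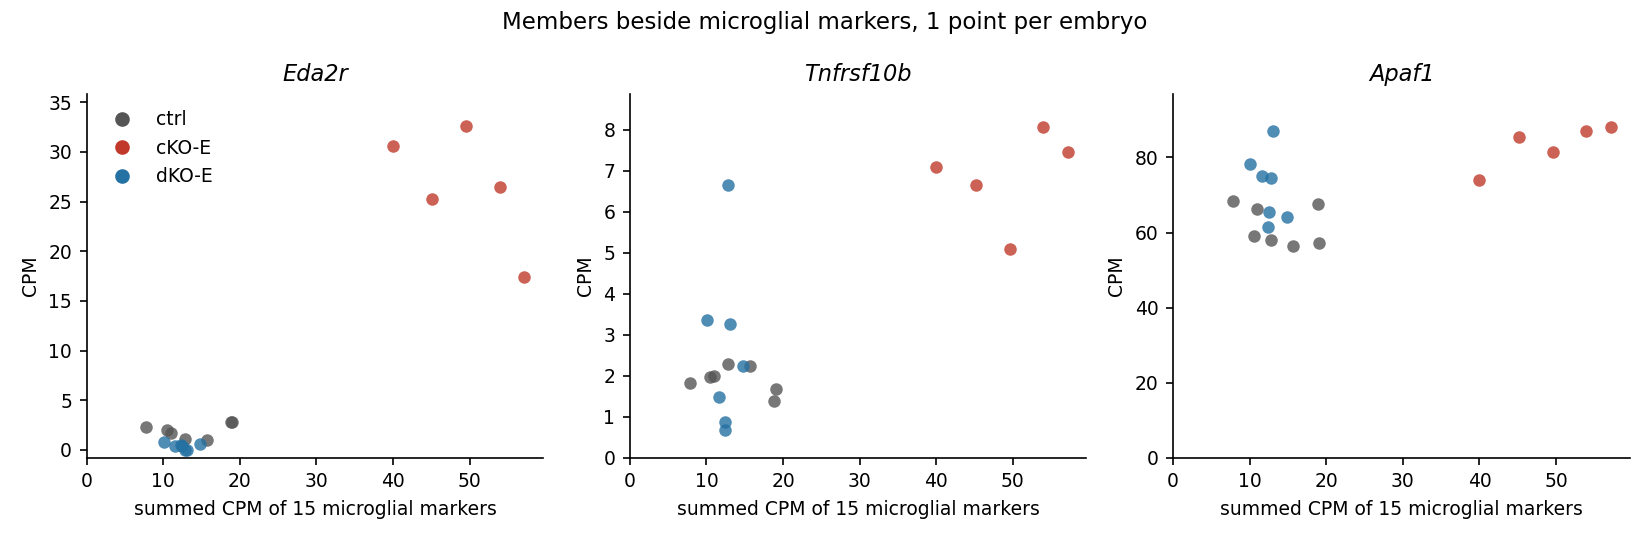
CPM of *Eda2r*, *Tnfrsf10b* and *Apaf1* (y axes) against the summed CPM of 15 microglial markers (x axes), 1 point per embryo, colored by genotype. The cKO-E embryos lie apart at 39.9 to 57.2 CPM on the x axis, and dKO-E embryo A stands out at 6.64 CPM of *Tnfrsf10b* with a marker sum of 12.8.

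The rest of the pathway was read from 5 lists holding 53 other genes. In cKO-E, 29 of them could be tested, and 0 were called at a false discovery rate of 0.001 by edgeR's quasi-likelihood test. Over all genes tested, 1.06% were higher and 2.32% lower at this threshold. An unadjusted p of 0.05 was passed by 4 higher and 3 lower genes of the lists. Among all 11660 genes tested, an edgeR quasi-likelihood p of 0.0245 was at rank 2742 and a p of 0.0851 at rank 4205. At least 2742 genes, both directions together, thus passed 0.05. At a false discovery rate of 0.05, 3 were higher (*Tnfrsf21*, *Ripk1* and *Pidd1*) and 1 lower (*Cradd*), where 7.31% and 9.88% of all genes were. Their median log2 fold change was -0.0054, against 0.0194 for the whole table. In dKO-E against ctrl, 28 were tested by edgeR's quasi-likelihood test. At 0.001, 0 were higher and 1 was lower (*Cradd*), where 0.246% and 2.34% of all genes were. An unadjusted p of 0.05 was passed by 4 higher and 4 lower genes, again without a share of all genes. At a false discovery rate of 0.05, 2 were higher (*Ripk1* and *Traf2*) and 4 lower (*Cradd*, *Aven*, *Eda* and *Faf1*), where 5.45% and 10% of all genes were. Between the mutants, 30 were tested, with *Traf2* higher and *Tnfrsf21* and *Pidd1* lower in dKO-E, beside 5.59% and 9.42% of all genes.

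*Casp2* acts in the PIDDosome, of which *Pidd1* and *Cradd* are on the lists, and in cKO-E none of these genes passed the threshold of 0.001. *Pidd1*, the sensor of the complex, ranged from 6.27 to 11.05 CPM in ctrl and from 11.9 to 16.9 in cKO-E. No cKO-E embryo overlapped ctrl, and the log2 fold change was 0.71 (SE 0.17, edgeR quasi-likelihood adjusted p = 0.00696). In dKO-E it ranged from 7.47 to 10.9 CPM, below every cKO-E embryo, as in 4.66% of genes (log2 fold change -0.63 against cKO-E, SE 0.15, adjusted p = 0.00678). *Cradd*, the adaptor that joins PIDD1 to caspase-2, was at 81.2 ± 6.06 CPM (SD, n = 7) in ctrl, 70.0 ± 4.93 (n = 5) in cKO-E and 63.2 ± 4.27 (n = 7) in dKO-E. It was lower than ctrl in both mutants at 0.05, as *Casp2* was. The fitted change was -0.22 on the log2 scale (SE 0.07, adjusted p = 0.0378) in cKO-E and -0.37 (SE 0.06, adjusted p = 0.000482) in dKO-E. Every dKO-E embryo was below every ctrl embryo, as in 3.22% of all genes. Between the mutants, *Cradd* did not pass (-0.14, SE 0.07, adjusted p = 0.224).

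**Figure D4:**
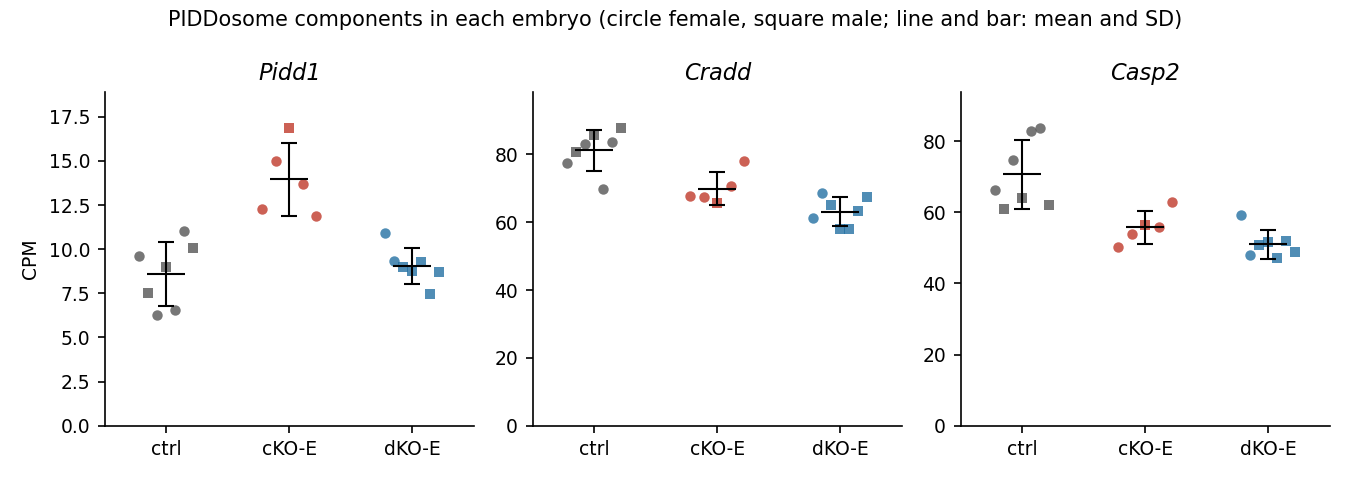
CPM (y axes, linear, with a scale of their own in each panel) of *Pidd1*, *Cradd* and *Casp2* in each embryo by genotype (x axes), with circles for females, squares for males, and the mean and SD in black. The cKO-E embryos are at 11.9 to 16.9 CPM for *Pidd1*, above every ctrl and dKO-E embryo, and the means of both mutants are below ctrl for *Cradd* and *Casp2*.

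The apoptosome and nuclease list, which holds *Hspa4*, *Aifm1*, *Diablo* and *Aven* as its most abundant tested genes, had 0 of 9 genes past a false discovery rate of 0.05 in cKO-E by edgeR's quasi-likelihood test, with 1 higher at an unadjusted p of 0.05. *Diablo*, which encodes an antagonist of XIAP, was at 36.4 ± 5.40 CPM in ctrl and 35.0 ± 3.68 in cKO-E. *Aven*, which encodes an inhibitor of APAF1, was at 36.4 ± 7.88 CPM in ctrl and 26.6 ± 3.63 in dKO-E (log2 fold change -0.41, SE 0.13, adjusted p = 0.0355, edgeR's quasi-likelihood test). Among the inhibitors of apoptosis, *Birc6*, *Birc2* and *Birc5* were tested and none of the 3 passed 0.05 in any comparison. *Birc6* was at 498 ± 17.4 CPM in ctrl, 497 ± 21.4 in cKO-E and 542 ± 8.11 in dKO-E. Every dKO-E embryo was above every ctrl embryo, as in 1.21% of all genes, and above every cKO-E embryo, as in 2.43%. The edgeR quasi-likelihood adjusted p was 0.0945 and 0.138.

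Among the other listed receptors of the TNF receptor family, *Tnfrsf21* (DR6) was at 62.7 ± 5.64 CPM (SD, n = 7) in ctrl, 80.3 ± 6.46 (n = 5) in cKO-E and 63.7 ± 4.60 (n = 7) in dKO-E. The log2 change was 0.34 (SE 0.08, edgeR quasi-likelihood adjusted p = 0.00555) in cKO-E and -0.33 (SE 0.08, adjusted p = 0.00551) between the mutants. *Tnfrsf19*, *Ngfr* and *Tnfrsf1a* did not pass in any comparison where they were tested. Of 7 listed ligands of the TNF family, only *Eda* was high enough to test. *Eda* encodes ectodysplasin, and alternative splicing decides whether its product binds EDAR or EDA2R, which a count per gene does not tell. It was at 74.9 ± 10.8 CPM in ctrl, 66.9 ± 5.02 in cKO-E and 60.9 ± 6.71 in dKO-E. The log2 change was -0.15 (adjusted p = 0.272) in cKO-E, where *Eda2r* rose, and -0.26 (SE 0.09, adjusted p = 0.0479) in dKO-E. *Fasl*, *Tnf* and *Tnfsf10*, which encode the ligands of FAS, TNFR1 and TNFRSF10B, were too low to test.

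Among the adaptors and regulators, *Ripk1*, a kinase recruited by death receptors, was higher in both mutants at a false discovery rate of 0.05. It was at 13.8 ± 1.77 CPM in ctrl, 19.9 ± 2.98 in cKO-E and 19.4 ± 4.68 in dKO-E. The log2 fold changes were 0.51 (SE 0.13, edgeR quasi-likelihood adjusted p = 0.0105) and 0.44 (SE 0.13, adjusted p = 0.0329). *Traf2*, an adaptor of TNF receptor signaling, was higher in dKO-E than in ctrl (0.31, SE 0.10, adjusted p = 0.0406) and than in cKO-E (0.30, SE 0.10, adjusted p = 0.0482), with ctrl embryo F above all dKO-E embryos. *Faf1*, which encodes a FAS-associated factor, was at 274 ± 9.58 CPM in ctrl, 249 ± 8.35 in cKO-E and 244 ± 14.2 in dKO-E (log2 fold change -0.17, SE 0.05, adjusted p = 0.0241 in dKO-E). *Traf6* was tested and did not pass.

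**Figure D5:**
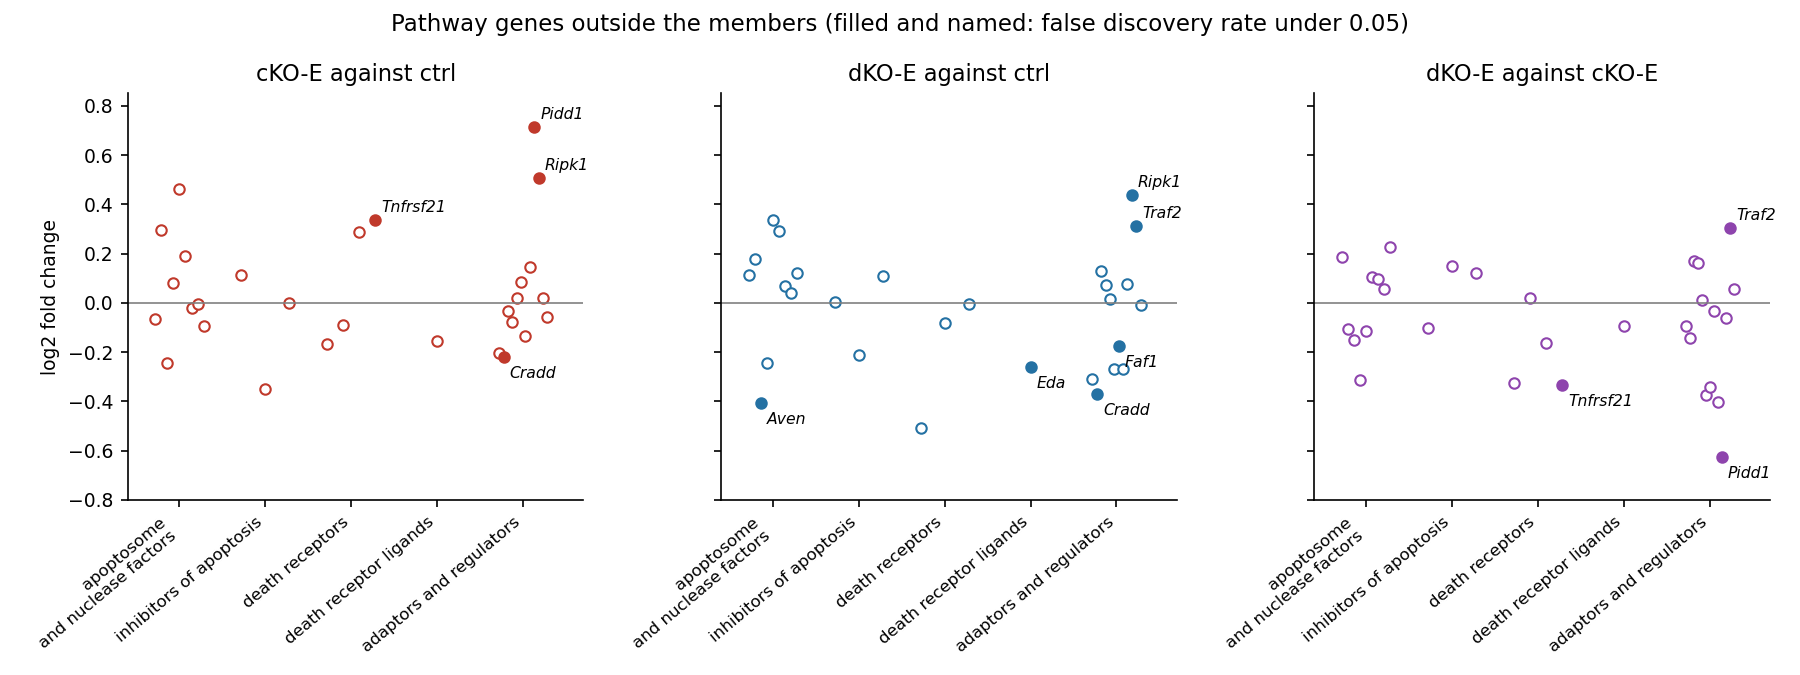
Log2 fold change (y axes) of the tested genes of 5 pathway lists (x axes) in the 3 comparisons, filled and named where the false discovery rate was under 0.05. *Pidd1*, *Ripk1* and *Tnfrsf21* are above 0 in cKO-E, and *Pidd1* and *Tnfrsf21* are below 0 in dKO-E against cKO-E.

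Patterns across the 19 libraries were compared among 12048 genes. Most like *Eda2r* were *Ano3* (Pearson's r of log2 CPM 0.98), *Trp53cor1* (0.96), a long noncoding RNA gene next to *Cdkn1a*, and *Cdkn1a* itself (0.95), which encodes the cell cycle inhibitor p21. For *Tnfrsf10b* they were *Gm32647* (0.87), *Nrip3* (0.83) and *Spon1* (0.82). For *Apaf1* they were *Sorcs1* (0.85), *Tacr3* (0.83) and *Sorcs2* (0.82), and for *Casp2* they were *Uqcc1* (0.88), *Ddx23* (0.86) and *Kansl2* (0.85). The libraries share genotype, depth and composition, so these values describe the pattern and carry no test.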

How the data were processed

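RNA was measured in the cortex of 19 embryos by UMI Click-seq, in which cDNA synthesis stops at random and each fragment carries a molecular tag. The authors trimmed reads with cutadapt 1.13, aligned them with STAR 2.5.2a, removed duplicates with UMI-tools 0.5.3 and counted reads per gene with HTSeq 0.6.1p1, per the submitters' processing notes. The deposited values are raw counts for 51912 genes per library, without normalization. The counter's summary lines, such as reads on no feature (4.96% to 12.5% of all counts) and ambiguous reads (1.78% to 2.07%), were left out of library sizes and tests. Gene names and positions came from GENCODE M21 on GRCm38, which matched 51719 identifiers, and promoters from RefSeq on the same build.

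Samples were grouped by the genotype in their labels. Each comparison was fitted on its own groups in R 4.3.3 with edgeR 4.0.16, using filterByExpr (minimum count 10), TMM factors and the quasi-likelihood test without covariates, and p values were adjusted by Benjamini-Hochberg over all genes tested. The threshold was a false discovery rate of 0.001 against ctrl, the value the study used with likelihood-ratio tests, and 0.05 between the mutants. SEs were derived from the F statistic, as the absolute log2 change over its square root. For CPM, TMM factors were taken from all 19 libraries together. Members under the filter were compared by two-sided exact permutation tests over embryos. The fits were run on simulated counts before use. These had no litter, batch or sex structure and larger changes than *Apaf1* and *Casp2* showed, so they do not bear on those calls. Plots were drawn with Python 3.11.15 and matplotlib 3.10.9.

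The members and lists were chosen with earlier results of these data known. A further list is not reported here. Genes named in the text are the 8 members, the targeted genes, listed genes past a threshold, up to 4 tested genes of each list with the highest mean CPM, and for each called member the 3 genes with the most similar pattern. Alternatives covered DESeq2 1.42.0, the likelihood-ratio test, other scalings and filters, covariates, blocks, single batches, females alone, other thresholds and each embryo left out in turn.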

Additional observations from a re-analysis of the deposited data

Results flagged for a closer look

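Of the 23 groups of member values checked for a sample far from the others, 1 stood out, where chance alone gives about 1 in 20. *Casp2* in dKO-E embryo A was at 59.3 CPM (125 counts), and the nearest of the other 6 dKO-E embryos was at 51.9 CPM. The gap was 0.608 of the range of the group. Embryo A was still below the lowest ctrl embryo, at 61.1 CPM. It also held the highest *Tnfrsf10b* value of its group, which did not pass the same check. What sets it apart was not tested.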

How the results depend on the processing

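*Eda2r* kept its direction and its call in cKO-E against ctrl and between the mutants under every alternative in which it was tested. In dKO-E against ctrl, its exact permutation test passed 0.05 in 4 of 6 alternatives, with an adjusted p of up to 0.1. The other 2 were batch 2 alone (3 ctrl and 2 dKO-E embryos) and females alone (4 and 2). Their splits are too few to reach 0.05 at any values, so they do not bear on this result. The number of members higher in cKO-E than in ctrl, 3, became 1 with at least 10 counts in every library (fewer members tested), with litter or the title letter as a block, in 1 fit over all libraries, in batch 2 alone and among females alone, 2 with RLE factors, sex as a covariate or batch 1 alone, and 2 to 3 with each embryo left out. The number lower, 0, became 1 by the likelihood-ratio test and 2 at a false discovery rate of 0.05. *Tnfrsf10b* missed 0.001 with litter as a block, at an adjusted p of 0.00136. The number lower in dKO-E than in ctrl, 1, became 0 with upper-quartile factors, total counts, batch or sex as a covariate, either block, batch 1 or 2 alone and females alone, 2 at 0.05, and 0 to 1 with each embryo left out. Between the mutants, the number lower in dKO-E, 2, became 0 with at least 10 counts in every library and 1 in batch 2 alone, among females alone and at 0.001, and was 2 to 3 with each embryo left out, the third being *Apaf1* without dKO-E embryo G. Apart from the fewer members or embryos that some alternatives leave, the cause was not tested.

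Signs changed only for *Casp8* and *Casp9*, past no threshold. *Casp8* in cKO-E was 0.18 in batch 2 alone and -0.17 to 0.04 with each embryo left out (0.037 without cKO-E A and 0.031 without ctrl H). *Casp9* in cKO-E was -0.067 with the letter block and -0.011 in batch 1. In dKO-E against ctrl it was -0.15 with litter as a block, -0.019 with the letter block and -0.060 in batch 1. Between the mutants it was 0.013 by DESeq2, 0.051 with total counts, 0.012 without a filter, 0.023 with the letter block, 0.0021 in 1 fit and 0.11 among females, and -0.090 to 0.078 with each embryo left out.

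The letters in the titles did not pair the samples: correlations of same-letter deviations ran from -0.36 to 0.14, with 1 pair over 0.1 in each comparison. With the letter as a replicate block, *Apaf1* in cKO-E was at 0.42, *Eda2r* at 4.05 and *Casp2* in dKO-E at -0.42 (log2 fold changes). Total counts moved the median log2 fold change of all genes in dKO-E against ctrl from 0.0081 to 0.10, with 80 genes higher and 118 lower in place of 28 and 266, and between the mutants 1064 were higher and 942 lower in place of 657 and 1106. Litter could not be a block between the mutants, which share none. *Fas*, *Casp8* and the receptors outside cKO-E rest on few counts, which limits their precision.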
